A study of Mus musculus with 27 samples.

Results

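Hair shaft medulla cells were the 882 cells, of 28373 kept from wild-type mouse back skin in full anagen (AnaVI, postnatal day 32), that carried the transcript of Foxq1 and enough UMIs of a small set of medulla genes. A kept cell had at least 500 genes, at least 1000 UMIs (unique molecular identifiers, which count captured RNA molecules) and under 10% mitochondrial UMIs. A member held at least 1 UMI of Foxq1 and at least 5 UMIs over Foxq1, Csta1, Sct and Aldh1a3, with 5 keratins of the inner root sheath (IRS) under 0.3% of its UMIs and 9 keratins of the hair cortex under 0.2%, of which 8 were measured. Mouse 1 gave 534 members of 14458 cells (3.69%, exact 95% binomial interval 3.39 to 4.01) and mouse 2 gave 348 of 13915 (2.50%, 2.25 to 2.77). These intervals cover counting error only. The rule used gene levels of the cells themselves, so the levels of Foxq1, Csta1, Sct and Aldh1a3, and of genes that vary with them, describe the members and are no finding about them.

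The single cells came from 2 wild-type mice whose skin cells had been sorted against blood, vessel, fibroblast and melanocyte surface markers (CD45, CD31, CD140a and CD117). Cells rich in collagen transcripts, called fibroblasts here, still made up 40.3% of kept cells in mouse 1 and 42.7% in mouse 2. The study also holds single cells of cultured hair follicle stem cells (HFSCs) from 2 wild-type mice in FBS, B27, atRA+PKCi, Rspo, BMP, Rspo+BMP or Rspo+BMP with a RAR inhibitor, and 8 bulk RNA-seq libraries of HFSC cultures from telogen (postnatal day 55) mice. The bulk cultures were wild-type or Rxra cKO (Sox9-CreER with floxed Rxra and a YFP reporter, so that deletion reaches Sox9-lineage cells only) and grew in FBS or in atRA+PKCi, all-trans retinoic acid with a protein kinase C inhibitor, with 2 libraries per group. Members and kept cells had median UMIs of 9988.5 and 8869 in mouse 1, and of 13289 and 10594 in mouse 2. The mice shared 62 cell barcodes, which included 2 members of mouse 1 and 1 of mouse 2.

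The medulla is the central column of the hair shaft, inside the cortex and cuticle, and it arises from the matrix, the dividing cells at the base of the bulb. Its cells build up granules of trichohyalin (Tchh), a protein that peptidylarginine deiminases modify and transglutaminases crosslink, and air spaces form between them as they harden. Foxq1, a forkhead transcription factor, and Hoxc13, a homeobox factor, are known for their part in medulla formation. Csta1 encodes a stefin, an inhibitor of cysteine proteases, Sct encodes the peptide hormone secretin, and Aldh1a3 encodes an enzyme that makes retinoic acid.

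On GRCm38, Foxq1 (ENSMUSG00000038415) lies on the plus strand of chromosome 13 from 31556134 to 31560976, and Csta1 (ENSMUSG00000034362) on the minus strand of chromosome 16 from 36119946 to 36131241. Sct (ENSMUSG00000038580) spans 141278330 to 141279133 and Aldh1a3 (ENSMUSG00000015134) 66390890 to 66427517, both on the minus strand of chromosome 7. Among the genes that the results below turn on, Padi3 (ENSMUSG00000025328) lies on chromosome 4 from 140785365 to 140810648, Prdm1 (ENSMUSG00000038151) on chromosome 10 from 44437177 to 44528501 and Krtap15 (ENSMUSG00000022931) on chromosome 16 from 88820215 to 88829844. All 7 are annotated as protein-coding.

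Promoters are shown for 2 genes of the rule, Csta1 and Sct, and for 2 genes that the rule did not use, Krtap15 and Tchh, because all 4 were higher in the trichohyalin-rich members than in the dividing members described further on (Tchh by the way those were cut). Each runs from 250 bases before to 50 bases after the RefSeq start (GRCm38.p6), 5′ to 3′ on the gene's strand, at chr16:36131140-36131439 for Csta1 (minus strand), chr7:141279084-141279383 for Sct (minus strand), chr16:88828759-88829058 for Krtap15 (plus strand) and chr3:93442080-93442379 for Tchh (plus strand). The Krtap15 window lies inside the gene span given above, which came from another annotation with a different start. Capitals mark matches, on either strand, to the core promoter box TATAAA, the forkhead core TGTTTA, the LEF/TCF core CTTTGA or the nuclear receptor core AGGTCA.
Csta1: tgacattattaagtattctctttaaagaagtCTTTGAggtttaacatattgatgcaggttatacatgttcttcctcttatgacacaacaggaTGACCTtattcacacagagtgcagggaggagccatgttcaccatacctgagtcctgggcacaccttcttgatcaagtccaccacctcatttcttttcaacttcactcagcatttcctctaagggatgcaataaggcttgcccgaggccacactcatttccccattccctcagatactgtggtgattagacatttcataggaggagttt
Sct: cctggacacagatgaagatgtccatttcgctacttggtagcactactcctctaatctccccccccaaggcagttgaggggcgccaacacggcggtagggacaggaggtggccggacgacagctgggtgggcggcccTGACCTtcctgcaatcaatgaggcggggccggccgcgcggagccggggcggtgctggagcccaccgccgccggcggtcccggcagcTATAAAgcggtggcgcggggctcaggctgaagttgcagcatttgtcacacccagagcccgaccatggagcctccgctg
Krtap15: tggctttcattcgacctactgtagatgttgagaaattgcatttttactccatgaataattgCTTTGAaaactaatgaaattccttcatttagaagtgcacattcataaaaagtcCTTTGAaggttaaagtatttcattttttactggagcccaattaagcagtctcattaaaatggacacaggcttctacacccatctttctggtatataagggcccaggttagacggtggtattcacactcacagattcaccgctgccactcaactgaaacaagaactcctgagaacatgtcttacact
Tchh: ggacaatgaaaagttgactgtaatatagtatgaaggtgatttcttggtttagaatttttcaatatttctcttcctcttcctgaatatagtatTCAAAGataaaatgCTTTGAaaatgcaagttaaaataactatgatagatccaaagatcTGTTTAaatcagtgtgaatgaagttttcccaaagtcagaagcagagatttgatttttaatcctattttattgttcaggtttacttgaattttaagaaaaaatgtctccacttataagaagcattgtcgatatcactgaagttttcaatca

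CTTTGA was present in the promoters of Csta1, Krtap15 and Tchh, and at 2 places each in the last 2 of these. AGGTCA stood on the opposite strand of Csta1 and Sct, TATAAA in Sct at 28 bases before the start, and TGTTTA in Tchh at 100 bases before it. Among 32851 RefSeq promoters of this length, 16.0% held CTTTGA, 16.3% AGGTCA, 13.6% TATAAA and 13.4% TGTTTA on either strand, so each of these letters is common. Of 6 further promoters, Prdm1 held TGTTTA on the opposite strand and Kitl held TATAAA, while Padi3, Krt75, Gpnmb and Soat1 held none of the 4 motifs in this window. A match describes letters and is not a binding site. Foxq1 and Aldh1a3 had no entry in the promoter table.

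The limits of the rule cut through a range of cells. The marker sum had a median of 17 UMIs and a highest value of 114 in mouse 1, and of 24 and 127 in mouse 2. At the limit, 29 and 27 members held exactly 5 marker UMIs, while 49 and 38 cells with Foxq1 stood just outside at 4. Padi3 lay at 63.6 and 110 UMIs per 1000000 (CPM) in the members at 5 and at 77.8 and 184 CPM in the cells at 4, so cells just inside the limit were no higher in this gene than cells just outside. In members with 20 or more marker UMIs Padi3 reached 304 and 315 CPM and Tchh 2472 and 2001 CPM. A further 302 and 246 cells passed the marker sum with Foxq1 at 0. These had Krtap15 at 7.31 and 4.26 CPM, against 187 and 152 CPM in the members.

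The members carried the marker genes of the medulla that their rule had not used, although those were chosen with earlier results of these data known. Cells were thinned to 5000 UMIs each for shares of cells with a UMI, which left out 22 of 534 members in mouse 1. Padi3, a deiminase that acts on trichohyalin, was found in 58.0% and 64.0% of thinned members and in 1.71% and 2.05% of thinned fibroblasts, a cell type that should lack it. Prdm1, a transcriptional repressor, was found in 51.6% and 51.2% of members against 1.34% and 2.07% of fibroblasts. For Krtap15, a keratin-associated protein, the shares were 45.9% and 36.8% against 0.55% and 0.31%. Without thinning, Padi3 was found in 75.3% and 81.3% of members, Prdm1 in 71.9% and 77.6%, and Krtap15 in 58.1% and 50.6%. The fibroblasts were deep enough for this comparison, with median UMIs of 9177 and 12313.5.

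Markers of other cell types were measured in the same cells. The 6 fibroblast markers summed to 4952 and 9147 CPM in members, 3656 and 4923 CPM in cortex, 1703 and 2767 CPM in IRS, 1565 and 1893 CPM in matrix and 48622 and 59615 CPM in fibroblasts. Collagen genes took at least 0.5% of UMIs in 52 of 534 and 49 of 348 members. The 8 melanocyte markers, all 8 with UMIs, summed to 353 and 274 CPM in members, 145 and 158 CPM in cortex, 61.4 and 85.1 CPM in IRS, 220 and 506 CPM in matrix and 285 and 453 CPM in fibroblasts, so members lay above cortex and IRS in both mice. Scrublet called 50 and 21 members doublets (9.36% and 6.03%), against 5.76% and 2.21% of all kept cells. The shares were 8.38% and 2.29% in cortex, 2.97% and 0% in matrix, 0% and 0% in IRS and 5.04% and 2.84% in fibroblasts. Members thus had the highest share of these classes in both mice. Counts without the collagen-bearing cells are given below, and the part of other cells' RNA in single genes was not tested.

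Members were compared with 3 other classes of the same mice, each cut by its own rule: 334 and 131 cortex cells (cortex keratins at 0.2% of UMIs or more), 60 and 32 IRS cells (IRS keratins at 2% or more) and 438 and 70 matrix cells (Msx2 with other matrix genes, no Foxq1 and few collagen UMIs). UMIs were summed per mouse and class, and the 8 sums entered one edgeR quasi-likelihood fit, with a gene called at an adjusted p under 0.01 and a log2 fold change beyond 1. The mice are the replicates (n = 2), and genes used by either rule were left out of counts. All classes were cut from gene levels in these same cells, so genes that vary with the rule genes had to differ, and the p-values say only how a difference stood against the spread between mice. The 3 comparisons share the member sums.

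Against cortex, 423 of 12023 tested genes were higher in members (3.52%) and 306 lower (2.55%). With the mouse as a block, 671 genes were higher. Against IRS, 734 of 12023 were higher (6.1%) and 560 lower (4.66%). Against matrix, 543 of 12015 were higher (4.52%) and 305 lower (2.54%), but the matrix rule had limited collagen and the member rule had not. Without cells that held collagen genes at 0.5% or more, the counts against matrix were 312 and 176. The median log2 fold change over all genes tested was 0.02 against cortex, 0.05 against IRS and -0.05 against matrix. These medians, and the shares over all genes tested, are the background for every count within a gene list below.

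The 3 markers outside the rule were each called higher against cortex, IRS and matrix. Prdm1 stood at 185 and 197 CPM in members of mouse 1 and mouse 2, at 3.99 and 7.2 CPM in cortex, at 0 and 2.84 CPM in IRS and at 15.4 and 17.5 CPM in matrix. Every class lay below the members without overlap, by a log2 fold change of 5.05 ± 0.26 (SE) against cortex and 3.53 ± 0.22 against matrix (edgeR adjusted p = 3.0e-06 and 1.8e-05). Padi3 was at 234 and 273 CPM in members, 19.9 and 33.2 in cortex, 74.8 and 76.6 in IRS and 15.4 and 25 in matrix, so its nearest class was the IRS (log2 fold change 1.53 ± 0.25, adjusted p = 0.0016). Krtap15 was at 187 and 152 CPM in members and at most 18.7 CPM in any sum of the other 3 classes.

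**Figure D1:**
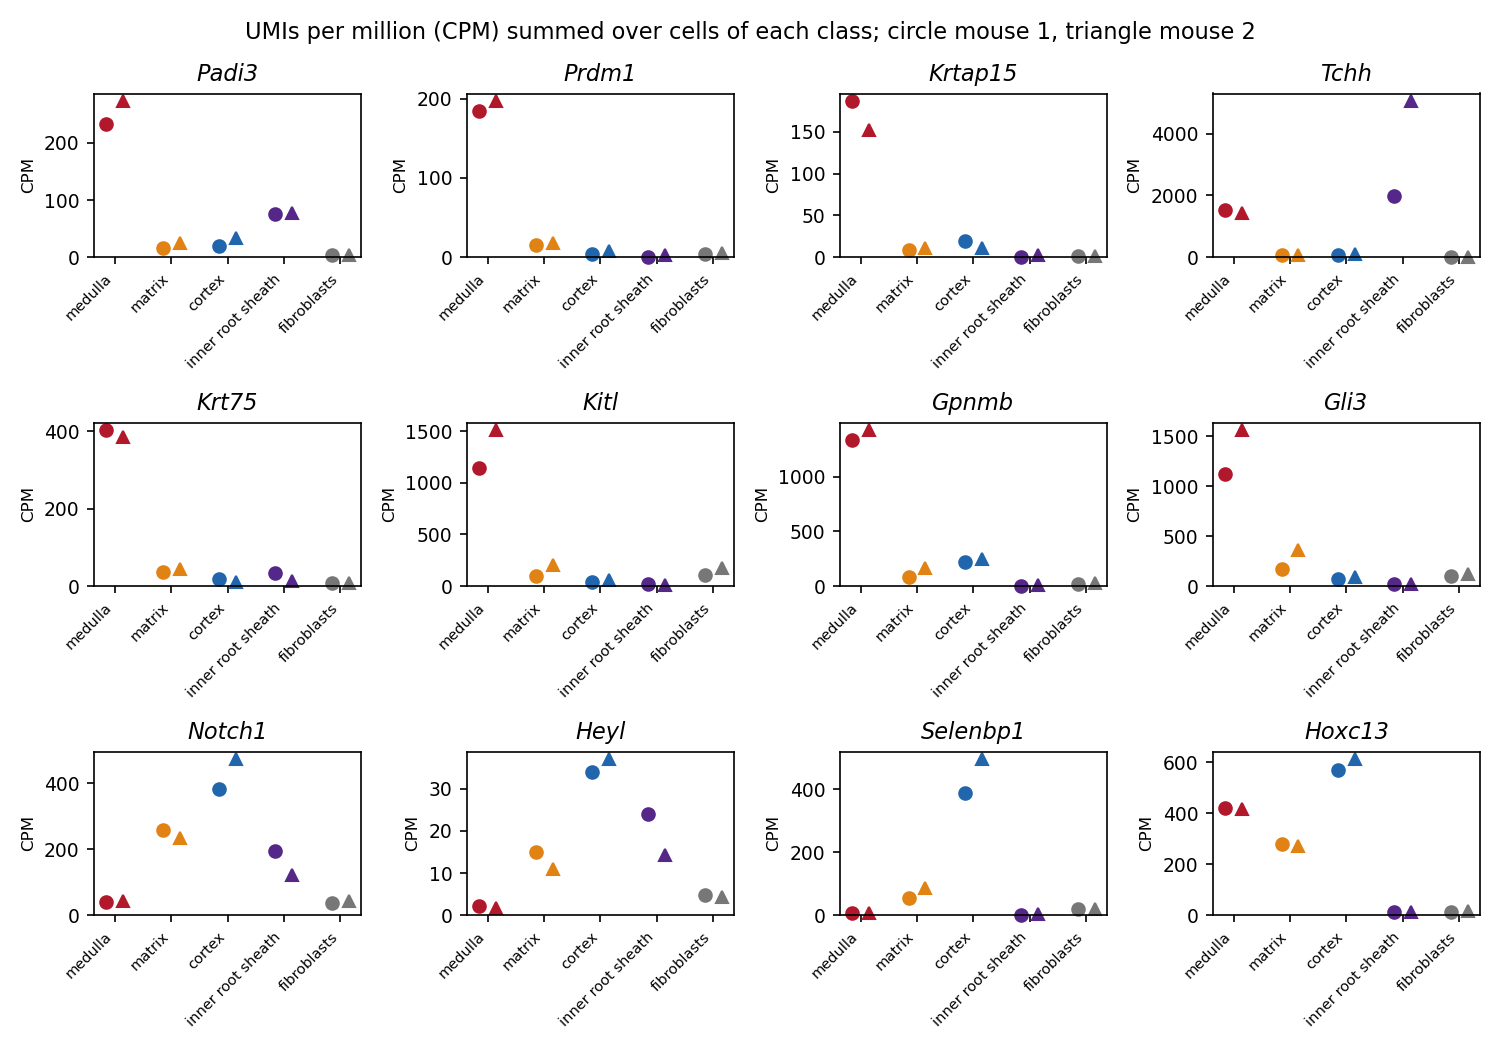
UMIs per 1000000 (CPM, linear axis from 0) of 12 genes in the summed cells of each class, with a circle for mouse 1 and a triangle for mouse 2. Padi3, Prdm1, Krtap15, Krt75, Kitl, Gpnmb and Gli3 were highest in medulla in both mice, Tchh was highest in the inner root sheath, and Notch1 and Heyl were lower in medulla than in cortex, matrix and inner root sheath.

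Trichohyalin and the enzymes that act on it were mostly higher in members than in matrix, and split against IRS. Of 12 tested genes of this list, 6 were higher and 0 lower than in cortex, 4 higher and 3 lower than in IRS, and 11 higher and 0 lower than in matrix, with median log2 fold changes of 2.24, 1.47 and 2.80. Tchh itself was at 1526 and 1435 CPM in members, 62.1 and 84.8 in cortex, 66.4 and 80.8 in matrix, and 1991 and 5046 in IRS, a sheath also known for trichohyalin. It was higher than in cortex (log2 fold change 4.19 ± 0.37, adjusted p = 3.6e-05) and matrix (4.32 ± 0.37, adjusted p = 6.4e-05). The difference from IRS (-1.44 ± 0.32, adjusted p = 0.0090) kept its sign but lost its call under 6 of the alternatives, with -1.27 when collagen-bearing cells were left out, which left 0 genes of the list lower than in IRS.

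Other members of this list followed 2 patterns. Ivl, which encodes the crosslinked envelope protein involucrin, was at 39.3 and 50.3 CPM in members and at no more than 8.98 CPM in the other 3 classes. Tgm6, a transglutaminase, was at 56.4 and 68.3 CPM against at most 11 CPM. Both were called higher in each comparison. S100a3, a calcium-binding protein and deiminase substrate, was by contrast shared with cortex, at 493 and 333 CPM in members and 644 and 390 in cortex, and low in matrix at 59.7 and 38.3 CPM.

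Soft keratins, those of basal cells and of the companion layer rather than of the hardened shaft, were in part higher in members. Of 11 tested genes of the soft keratin list, 5 were higher and 0 lower than in cortex, 6 higher and 0 lower than in IRS, and 3 higher and 2 lower than in matrix, with medians of 1.62, 2.41 and 0.60. With the mouse as a block, 1 was lower than in cortex and 5 were higher than in matrix. Krt75, the type II keratin first described in the companion layer, was at 403 and 384 CPM in members and between 11.6 and 45 CPM in the other 3 classes, which gave a log2 fold change of 4.46 ± 0.26 against cortex (adjusted p = 4.9e-06). Krt17 was at 1404 and 987 CPM against at most 352, and Krt23 at 278 and 324 CPM against at most 70.8. Krt5 and Krt14, the keratins of basal cells, were higher than in cortex and IRS. Against matrix, Krt5 was at 373 and 405 CPM beside 385 and 320 and did not pass the test (0.11 ± 0.17, adjusted p = 0.97).

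Some genes of the hardening cortex were lower in members and others were at like levels. Krtap7-1 was at 4.87 and 9.53 CPM against 232 and 219 in cortex, and Krt36, a hair keratin outside the rule, at 1.14 and 1.14 CPM against 32.9 and 36.6. Selenbp1, a selenium-binding protein, was at 7.64 and 6.10 CPM in members and 389 and 495 in cortex (log2 fold change -6.15 ± 0.25, adjusted p = 6.1e-07). Dapl1 was at 134 and 103 CPM against 3494 and 3045. Krtap8-1 behaved otherwise, with 286 and 330 CPM in members beside 368 and 384 in cortex, while matrix held 34.3 and 10.8. Lower in members than in IRS were Prr9, at 2.76 and 3.24 CPM against 2142 and 2551, Krt72, at 0.33 and 0.57 CPM against 207 and 179, and the transcription factor Gata3, at 32.5 and 48.4 CPM against 370 and 431.

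Csta1 has close relatives in the stefin family, and 2 of them were found with it. Stfa2 was at 11.2 and 16.6 CPM in members and at 0 UMIs in both IRS and both matrix sums, which made it at least 4.73-fold and at least 32.6-fold higher when 3 UMIs over both mice were taken as the floor. Csta3 was at 4.87 and 4.96 CPM and at 0 in every sum of the other 3 classes. Both are near copies of Csta1, and reads could be split among them, so their levels are uncertain. Of 10 tested cystatin and cathepsin genes, 2 were higher than in cortex, 2 than in IRS and 3 than in matrix, with medians of 0.32, 1.11 and 0.74. Ctsl, which encodes the protease cathepsin L, lost its call against matrix without collagen-bearing cells (0.91).

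Kitl, Gpnmb and Mreg, 3 genes known from melanocyte supply and pigment cells, were called higher in members than in cortex, IRS and matrix. Kitl encodes KIT ligand, which melanocytes need. It was at 1147 and 1508 CPM in members, 43.6 and 56.5 in cortex, 19.5 and 11.4 in IRS and 98.6 and 208 in matrix, with log2 fold changes of 4.58 ± 0.32, 6.11 ± 0.42 and 3.14 ± 0.30 (adjusted p = 8.8e-06, 4.3e-06 and 1.1e-04). Gpnmb, a melanosome glycoprotein, was at 1332 and 1424 CPM in members, 219 and 247 in cortex, 4.49 and 14.2 in IRS and 79.6 and 163 in matrix. Mreg, which encodes melanoregulin, was at 171 and 200 CPM in members and at 0 UMIs in both IRS sums, at least 63.2-fold higher by the floor of 3 UMIs.

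Melanocyte markers were present in the same cells at lower levels. Dct, a melanin enzyme, was at 189 and 148 CPM in members, 84.3 and 80.3 in cortex, 32.9 and 36.9 in IRS and 102 and 230 in matrix, and was called higher against IRS alone. Pmel was at 45.8 and 14.3 CPM in members and 7.72 and 31.7 in matrix, and Tyr at 9.10 and 7.63 beside 2.23 and 59.2, so for both genes the mice of these classes overlapped. Of the 7 tested melanocyte markers, 0 were called higher against cortex or matrix by edgeR, and Kit was lower than in matrix. With the mouse as a block, 1, 3 and 1 of the 7 were higher than in cortex, IRS and matrix. In thinned cells, Dct was found in 51.4% and 52.1% of members against 10.5% and 14.8% of fibroblasts, Gpnmb in 89.3% and 88.9% against 7.60% and 10.8%, and Mreg in 46.5% and 52.0% against 1.1% and 1.13%. The part of melanocyte RNA in Gpnmb and Mreg was not tested. In the list of genes for pigment transfer to keratinocytes, Kitl was the only one of 9 tested that was higher in any of the 3 comparisons, and Foxn1, a factor that marks pigment-receiving cells, was lower in each, while with the mouse as a block 2, 2 and 3 genes of this list were higher than in cortex, IRS and matrix. Foxn1 was at 3.57 and 2.67 CPM in members and 42.6 and 44.3 in cortex.

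Soat1, P3h2 and Fabp4 were among the 10 genes named as highest above matrix. Soat1, which esterifies cholesterol, was at 229 and 333 CPM in members and between 4.49 and 16.7 CPM in the other 3 classes, and P3h2, a collagen prolyl hydroxylase, was at 160 and 197 CPM against 2.84 to 16.7. Fabp4, a fatty acid binding protein, was at 1380 and 1183 CPM against at most 190, whereas its relative Fabp5 was abundant in every class, at 3339 and 2368 CPM in members and 4269 to 6006 in the others. The calls of Fabp5 lay at the fold limit and were lost under several alternatives. Fibroblasts held Soat1 at 44.2 and 55.8 CPM and P3h2 at 4.10 and 7.31 CPM, both below the members.

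Genes of Notch signalling, in which Delta and Jagged ligands on neighbouring cells activate Notch receptors, were in part lower in members. Of 14 tested Notch genes, 5 were lower than in cortex, 5 than in IRS and 5 than in matrix, not the same 5 each time, while 2, 2 and 0 were higher, with medians of -0.75, 0.27 and -0.07. Notch1 was at 39.6 and 42.5 CPM in members, 384 and 475 in cortex, 193 and 122 in IRS and 257 and 234 in matrix (log2 fold changes -3.54 ± 0.22, -2.19 ± 0.23 and -2.61 ± 0.21). This was close to its level in fibroblasts, 36.9 and 44.1 CPM. The target Heyl was at 2.11 and 1.72 CPM against 10.8 to 37.1, and Nrarp, a feedback inhibitor, at 11.2 and 8.39 CPM against 36.9 to 57.6.

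Notch ligands split. Jag2 was at 100.7 and 113 CPM in members, above the 11 and 11.6 in cortex and the 7.48 and 5.68 in IRS, and beside 58.0 and 78.3 in matrix, where it did not pass the fold limit (0.66 ± 0.16). Jag1 was at 117 and 147 CPM against 307 and 409 in cortex and 248 and 310 in matrix. Its lower level than in matrix was no longer called without collagen-bearing cells (-0.89), and neither was that of Notch3 (-1.11), which left 3 Notch genes lower than in matrix.

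**Figure D2:**
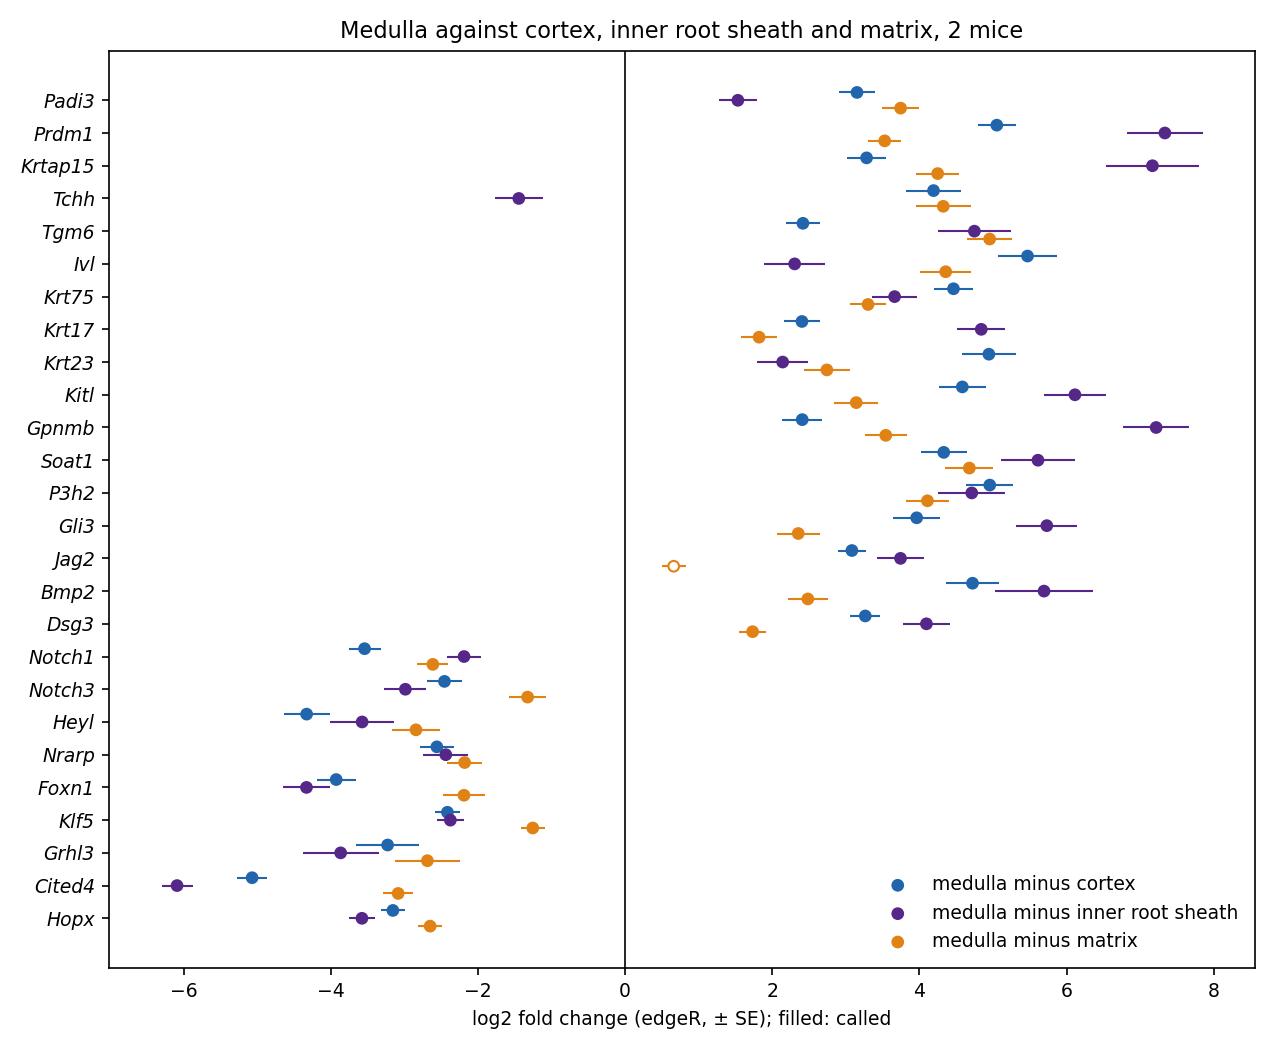
Log2 fold changes with standard errors (edgeR, 2 mice per class) of 26 genes, for members minus cortex (blue), minus inner root sheath (purple) and minus matrix (orange), with filled points for called differences. Genes from Notch1 to Hopx lay below 0 in each comparison, Tchh lay on both sides of 0, and Jag2 against matrix was not called.

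Transcription factors of the shaft showed shared and separate levels. Hoxc13 was at 420 and 419 CPM in members, 570 and 613 in cortex, 280 and 273 in matrix and 13.5 and 11.4 in IRS, and only the difference from IRS was called (4.83 ± 0.23, adjusted p = 6.1e-07). Lef1, the Wnt effector of the matrix, was at 856 and 943 CPM in members and 927 and 1338 in cortex. Of 30 tested shaft and matrix factors, 1 was higher and 6 lower than in cortex, and 7 higher and 7 lower than in IRS, and of 27 tested against matrix 2 were higher and 8 lower. The medians were -0.03, 0.23 and -0.55. Over all genes tested, 3.52% were higher and 2.55% lower than in cortex, 6.1% and 4.66% than in IRS, and 4.52% and 2.54% than in matrix. The single factor above cortex was Prdm1. Klf5, Grhl3 and Zfp750, regulators of epithelial differentiation, were lower in each comparison, with Klf5 at 31.4 and 38.7 CPM against 80.4 to 176 and Grhl3 at 1.14 and 2.48 CPM against 10.3 to 25.5. The cofactor genes Cited4 and Hopx were lower as well, Hopx at 36.7 and 40.4 CPM against 219 to 401.

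Signalling genes outside Notch differed one by one. Gli3, which turns Hedgehog signals into activation or repression, was at 1126 and 1560 CPM in members, 69.1 and 85.9 in cortex, 19.5 and 25.5 in IRS and 168 and 362 in matrix, while Gli1, a target of the same pathway, was at 10.9 and 13.0 CPM beside 15.2 and 18.8 in cortex. Of the 8 tested Hedgehog genes, Gli3 was the only one called against cortex, and 4 were higher and 0 lower than in IRS. Of 7 tested against matrix, Gli3 was higher and Gli1 lower (-1.31 ± 0.21, edgeR adjusted p = 0.0023). The call of Gli1 was lost with only the 2 classes fitted and with thinned cells. The list medians were 0.29, 0.87 and -0.56. Bmp2, a secreted BMP ligand, was at 65.6 and 56.4 CPM in members and 0 to 11.1 CPM elsewhere, and the decoy receptor gene Bambi at 316 and 259 CPM against 49.4 to 135. In the BMP list, 2 of 19 tested genes were higher and 2 lower than in cortex, 6 higher and 1 lower than in IRS, and 3 higher and 2 lower than in matrix. The medians were 0.31, 0.47 and 0.11, and the shares over all genes are those given with the shaft factors above.

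Among 26 tested Wnt genes, 5 were higher and 3 lower than in cortex, and 10 higher and 2 lower than in IRS, and among 25 tested, 2 were higher and 3 lower than in matrix. Wnt3, a ligand, was at 64.0 and 67.7 CPM in members, 21.7 and 31.0 in cortex, 0 and 2.84 in IRS and 8.06 and 10.8 in matrix. Wnt5a was at 110 and 105 CPM, above 19.9 and 21.6 in cortex and beside 93.0 and 123 in matrix. Wnt10b was at 3.90 and 5.34 CPM, below 17.0 and 23.8 in cortex and 18.5 and 17.5 in matrix. With a stricter cortex class (keratins at 0.5% or more) the calls of Wnt3 and Bambi against cortex were lost, at 0.83 and 0.43.

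Retinoid genes, which make, carry and read retinoic acid, included Aldh1a3 of the rule, at 903 and 1104 CPM in members. Of the other 15 tested, 1 was higher and 1 lower than in cortex, 4 higher and 2 lower than in IRS, and 3 higher and 1 lower than in matrix. The medians were 0.62, 1.59 and 0.20. Over all genes tested, 3.52% were higher and 2.55% lower than in cortex, 6.1% and 4.66% than in IRS, and 4.52% and 2.54% than in matrix. The counts against cortex were thus near the share over all genes. With the mouse as a block 4 were higher than in cortex. Rdh10, which oxidizes retinol, was at 27.9 and 24.6 CPM in members, 5.98 and 7.76 in cortex and 6 and 10.0 in matrix. Stra6, the retinol transporter gene, was at 119 and 89.6 CPM in members, 73.0 and 72.6 in cortex, 41.2 and 31.7 in matrix and 13.5 and 2.84 in IRS. The calls of Aldh1a1 against IRS and matrix were lost under several alternatives, and fibroblasts held more of it (74.7 and 122 CPM) than members (15.4 and 37.9 CPM).

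Junction genes differed in kind. Of 20 tested, 3 were higher and 4 lower than in cortex, 3 higher and 11 lower than in IRS, and 3 higher and 1 lower than in matrix. The medians were -0.88, -1.22 and -0.11, and the shares over all genes are those given with the shaft factors above. With the mouse as a block 7 were lower than in cortex. Dsg3, the desmoglein of basal layers, was at 134 and 178 CPM in members and at most 51.7 CPM in the other 3 classes. Dsg4, the desmoglein of the hair cortex, was at 3.25 and 6.86 CPM in members and 159 and 183 in cortex. Dsp, which encodes desmoplakin, was at 441 and 495 CPM, below 1082 and 1229 in IRS and beside 448 and 448 in matrix.

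Part of the members carried cell cycle transcripts. A cell was counted as cycling when the genes of the S and G2/M lists took at least 0.2% of its UMIs, after thinning to 5000 UMIs. This held for 34.0% of members in mouse 1 (exact 95% interval 29.9 to 38.3) and 27.8% in mouse 2 (23.1 to 32.9), against 80.3% and 84.3% of matrix cells, 10.4% and 8.06% of cortex cells, 7.55% and 3.85% of IRS cells and 3.22% and 5.41% of fibroblasts. Matrix, medulla and cortex kept this order in both mice, and the IRS shares rest on 4 and 1 cells. Without thinning the member shares were 32.4% and 27.0%.

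Single genes of the cycle lists were tested as well. Of 20 S phase genes, 9 were higher in members than in cortex, 9 higher than in IRS and 12 lower than in matrix, and of 20 G2/M genes, 5, 2 and 7. With the mouse as a block, 12, 6 and 14 G2/M genes were called in these directions. Mki67 was at 237 and 183 CPM in members, 71.1 and 77.6 in cortex, 82.3 and 36.9 in IRS and 424 and 520 in matrix, and its difference from matrix (-1.18 ± 0.23) was no longer called without collagen-bearing cells (-0.99). Without collagen-bearing cells, 7 S phase and 0 G2/M genes were lower than in matrix. Cdkn1a, the cell cycle inhibitor p21, was at 169 and 203 CPM in members, between the 73.1 and 75.8 in matrix and the 320 and 377 in cortex.

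**Figure D3:**
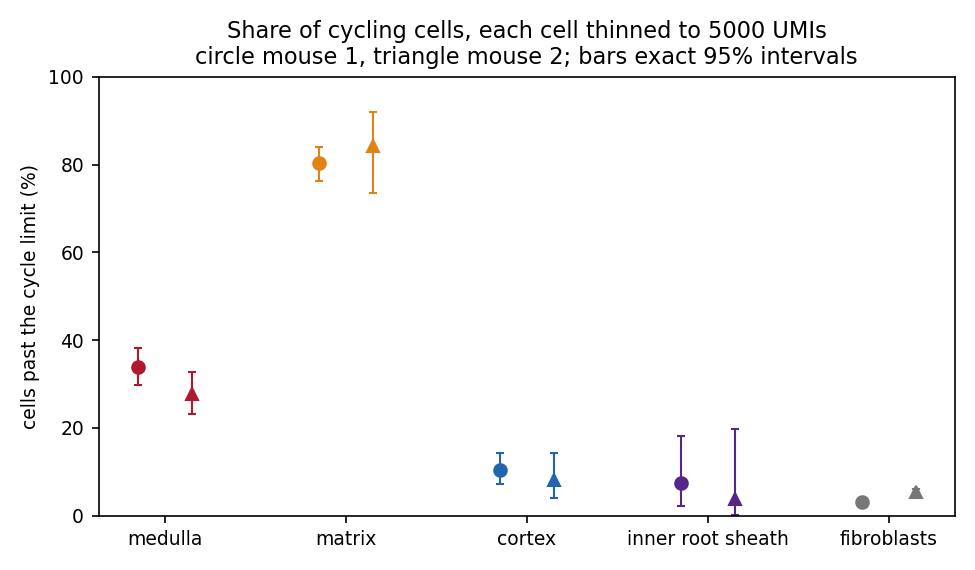
Share of cells in which cell cycle genes took at least 0.2% of UMIs (percent, axis from 0 to 100) by class, with a circle for mouse 1, a triangle for mouse 2 and exact 95% binomial intervals as bars. Medulla cells, at 34.0% and 27.8%, lay between matrix cells above and cortex cells below in both mice.

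The members were then split into 3 ranges: cycling cells (173 and 94), quiet cells with Tchh under 0.1% of UMIs (188 and 156) and quiet cells with Tchh at 0.1% or more (173 and 98). These ranges were cut from the values themselves, so they are given without tests, and 29 cells in each mouse lay near the Tchh limit. Csta1 was at 49.5 and 76.7 CPM in cycling cells, 255 and 253 in quiet cells with low Tchh and 523 and 603 in quiet cells with high Tchh. Sct took the same order, with 41.1 and 67.2, then 223 and 194, then 396 and 423 CPM. Both genes were thus lowest in cycling cells and highest with Tchh, in both mice. Foxq1 spanned less, from 325 and 222 to 705 and 556 CPM.

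Several genes outside the rule kept that order. Padi3 went from 84.5 and 133 through 272 and 235 to 416 and 528 CPM. Krt75 went from 183 and 195 through 409 and 360 to 724 and 685 CPM, and Soat1 from 60.9 and 96.9 through 270 and 294 to 437 and 721 CPM. Krtap15, Krt23, Gpnmb, Kitl, P3h2, Mreg and Gli3 were likewise lowest in cycling and highest in high-Tchh cells of both mice. Prdm1 varied little after the first step, at 139 and 137, 213 and 212, and 225 and 254 CPM.

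Other genes had their own order. Fabp4 was at 751 and 951 CPM in cycling cells and 633 and 530 in quiet cells with low Tchh, and at 3050 and 2579 in those with high Tchh. Tgm6 was as high in quiet cells with low Tchh, at 94.0 and 91.9 CPM, as in those with high Tchh, at 78.4 and 89.0. Krtap8-1 was highest in the middle range, at 542 and 487 CPM beside 243 and 245 in the high-Tchh range. Wnt5a went down, from 158 and 142 to 54.2 and 49.9 CPM, and so did the transcription factor Cux1, from 558 and 548 to 257 and 244 CPM. Krt5 was lowest in the high-Tchh range, at 204 and 163 CPM.

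Some levels belonged to a single library. Krt10, a keratin of the epidermis, was at 725 CPM in cycling members of mouse 2 and 27.0 in those of mouse 1, and Krt1 at 256 against 1.14 CPM. Cst6 was at 1915 CPM in quiet low-Tchh members of mouse 1 and 23.2 in those of mouse 2, and Krt79 at 206 against 11.1 CPM. These genes were picked out after their values were seen. Collagen genes were highest in the quiet low-Tchh range, at 8225 and 13735 CPM, beside 3363 and 4325 in cycling and 3389 and 6851 in high-Tchh cells. With collagen-bearing cells left out of that range, Csta1 stood at 303 and 329 CPM, still between the other ranges.

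**Figure D4:**
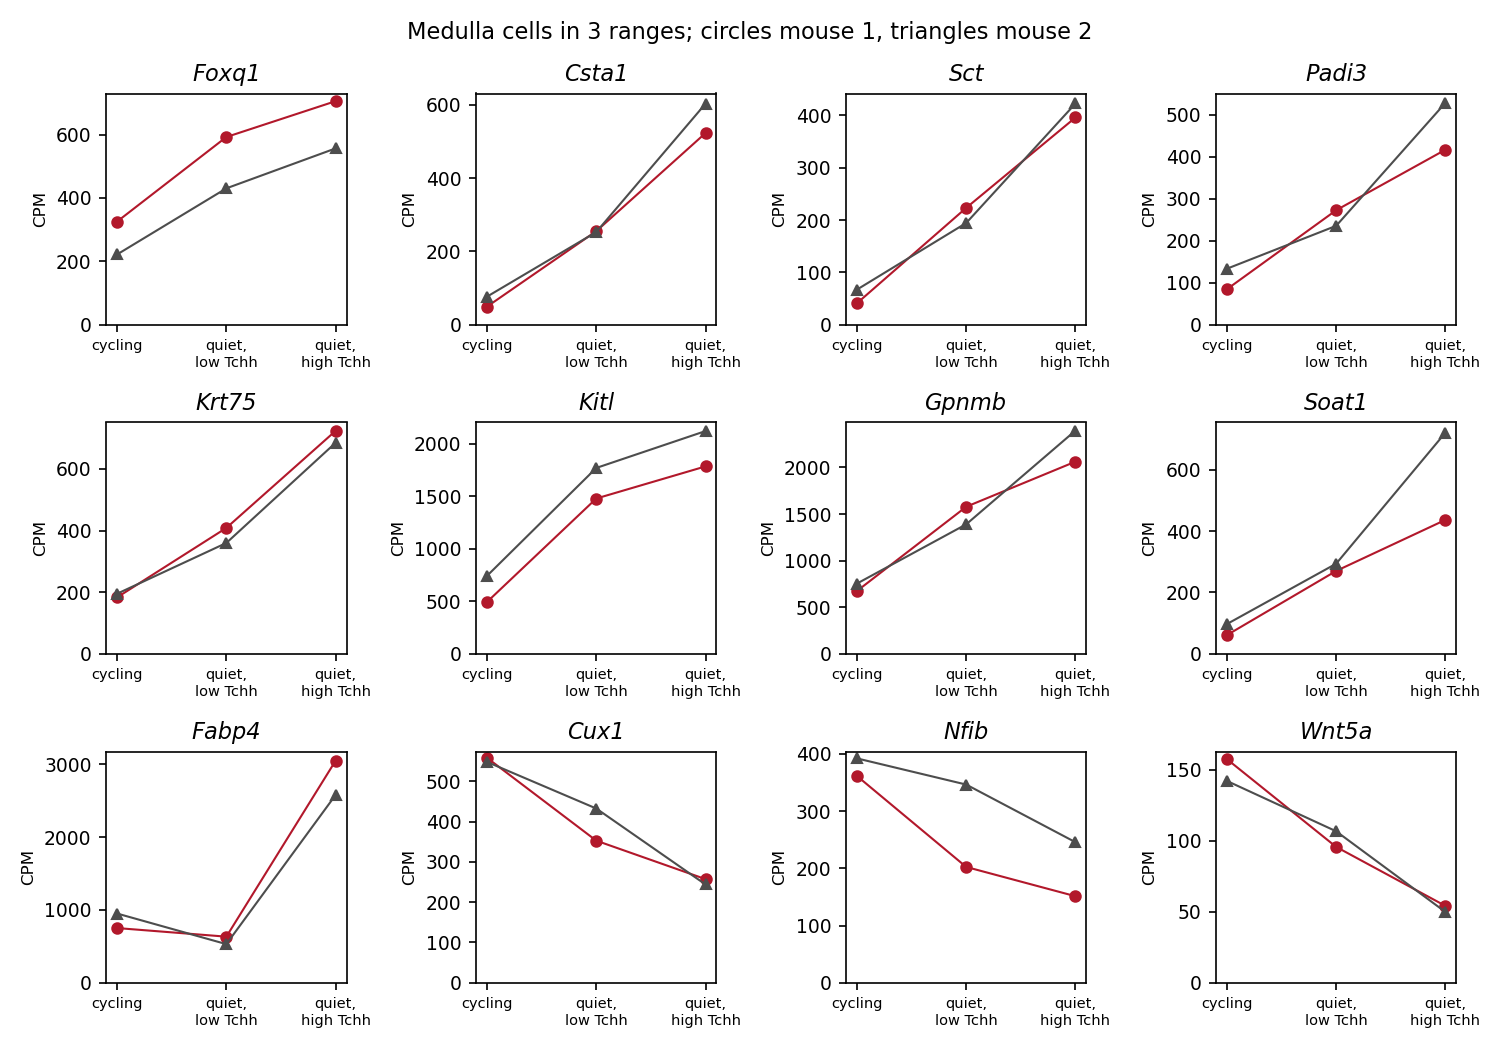
UMIs per 1000000 (CPM, linear axis from 0) of 12 genes over 3 ranges of medulla cells, with circles for mouse 1 and triangles for mouse 2. Csta1, Sct, Padi3, Krt75, Kitl, Gpnmb and Soat1 went up from cycling to high-Tchh cells in both mice, Fabp4 went up at the last step, and Cux1, Nfib and Wnt5a went down.

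Within each mouse, Csta1 and Sct varied together over thinned members, with Spearman's rho of 0.46 over 512 cells of mouse 1 and 0.41 over 342 of mouse 2. Csta1 ran against the summed cell cycle genes, at -0.38 and -0.37, and Padi3 did so at -0.40 and -0.28. For Prdm1 the values were -0.05 and -0.10, although its CPM was lower in the cycling range than in both quiet ranges of each mouse. Only 51.6% and 51.2% of thinned members held a UMI of Prdm1, which limits its rho. These values describe cells that share a library and were chosen in part by Csta1 and Sct, and they carry no test.

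Cultured HFSCs were asked the same rule, which 162 of 262 kept cells of mouse 1 (61.8%, exact 95% interval 55.7 to 67.7) and 53 of 94 of mouse 2 (56.4%, 45.8 to 66.6) passed. Without the mitochondrial limit 241 of 449 (53.7%) and 71 of 208 (34.1%) passed. The rule counts UMIs, so the share that passes varies with depth, and depth was not matched between culture and skin. The kept cells were also far fewer than the cultured cells that the study reported, so these shares do not stand for its cultures. FBS was left with 1 cell, in mouse 1, and atRA+PKCi with 2 and 1. The kept cells were mostly from BMP (122 and 14) and Rspo+BMP (102 and 35) cultures, where 81 and 9, and 63 and 19, passed. Their other genes went against the name. Over the passing cells, Foxq1 was at 177 and 190 CPM and Csta1 at 134 and 178 CPM, but Sct and Msx2 had 0 UMIs, Krtap15 had 0 and 1, Krt75 had 4 and 1, and Aldh1a3 was at 1.52 and 2.15 CPM. Krt14 was at 12257 and 11990 CPM and Krt5 at 3408 and 3696 CPM, against 234 and 294, and 373 and 405, in the skin members. Gpnmb was at 4.57 and 7.74 CPM and Lef1 at 4.27 and 5.16 CPM. In culture the rule therefore marked Foxq1- and Csta1-bearing HFSCs, and these cells are not called medulla here. Skin and culture were separate libraries, so no test was made between them.

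In the bulk HFSC cultures the genes of the medulla rule and marker list were measured by medium and genotype. Rxra, the targeted gene, was at 149 and 122 normalized CPM in FBS and 147 and 143 in atRA+PKCi in wild-type, 97.2 and 95.7 in the libraries labelled Rxra cKO in FBS and 148 and 145 in those in atRA+PKCi. A gene-level estimate also counts reads outside a deleted part, so it does not check the deletion. In bulk, fewer cells that carry a transcript and less of it per cell cannot be told apart. Sct was near 0 in each library, and Krtap15 was not tested for low counts.

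Csta1 was at 1034 and 1301 CPM in wild-type FBS cultures and 34.3 and 32.9 with atRA+PKCi, and at 216 and 313 and then 95.6 and 94.0 CPM in Rxra cKO. It fell in both genotypes, by a log2 fold change of -5.12 ± 0.20 in wild-type (edgeR adjusted p = 1.2e-07) and -1.48 ± 0.17 in Rxra cKO (adjusted p = 1.6e-04). The difference between these falls, the interaction, was -3.64 ± 0.24 (adjusted p = 2.3e-05). Aldh1a3 was at 56.4 and 68.8, then 0.64 and 0.38 CPM in wild-type, and at 297 and 364, then 41.8 and 38.3 CPM in Rxra cKO. It fell with atRA+PKCi in both genotypes (-6.93 ± 0.23 and -3.04 ± 0.14), and in either medium the Rxra cKO libraries lay above the wild-type ones without overlap.

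Foxq1 took another course. In wild-type it was at 148 and 122 CPM with FBS and 202 and 192 with atRA+PKCi, a rise of 0.54 ± 0.09 on the log2 scale (adjusted p = 0.0010). In Rxra cKO it was at 36.8 and 36.7 and then 33.6 and 35.4 CPM, with no change called (-0.09 ± 0.10, adjusted p = 0.49). The interaction, 0.64 ± 0.13, was lost at 0.56 without replicate 1 of Rxra cKO in atRA+PKCi. Foxq1 and Csta1 therefore went opposite ways with medium in wild-type cultures.

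The markers outside the rule were read the same way. Prdm1 fell from 61.6 and 61 to 1.70 and 1.68 CPM in wild-type (-5.18 ± 0.21, adjusted p = 1.7e-07) and from 45.5 and 67.2 to 10.2 and 9.09 CPM in Rxra cKO (-2.55 ± 0.17). Padi3 was at 72.6 and 61.1, then 60.5 and 56.7 CPM in wild-type (-0.19 ± 0.10, adjusted p = 0.13), and fell from 61.3 and 57.5 to 32.4 and 35.8 CPM in Rxra cKO (-0.80 ± 0.10). Its interaction of 0.61 ± 0.14 was no longer called without replicate 1 of wild-type atRA+PKCi (0.52), of Rxra cKO FBS (0.52) or of Rxra cKO atRA+PKCi (0.50). Tchh fell from 86.2 and 79.7 to 13.7 and 13.1 CPM in wild-type and rose from 17.3 and 21.8 to 38.3 and 37.4 CPM in Rxra cKO, with an interaction of -3.58 ± 0.15 (adjusted p = 3.2e-06).

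Read against the background, these counts are small lists in a wide response. Of 5 tested rule and marker genes, in wild-type 1 rose and 3 fell with atRA+PKCi, where 27.2% of 15965 genes were higher and 26.6% lower. In Rxra cKO 0 were higher and 4 lower, beside 20.8% and 22.2%, and by the interaction 2 were higher and 3 lower, beside 11.3% and 13.3%. Of 18 tested trichohyalin and crosslinking genes, 3 were higher and 12 lower in either genotype, with medians of -4.09 in wild-type and -1.24 in Rxra cKO, where the medians over all genes were 0.03 and 0.02. Tgm3, a transglutaminase, went from 672 and 578 to 2.08 and 2.41 CPM in wild-type. Kitl and Gpnmb were higher in atRA+PKCi, Kitl from 4.53 and 5.49 to 36.2 and 41.5 CPM and Gpnmb from 9.27 and 10.0 to 36.9 and 45.5 CPM in wild-type.

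**Figure D5:**
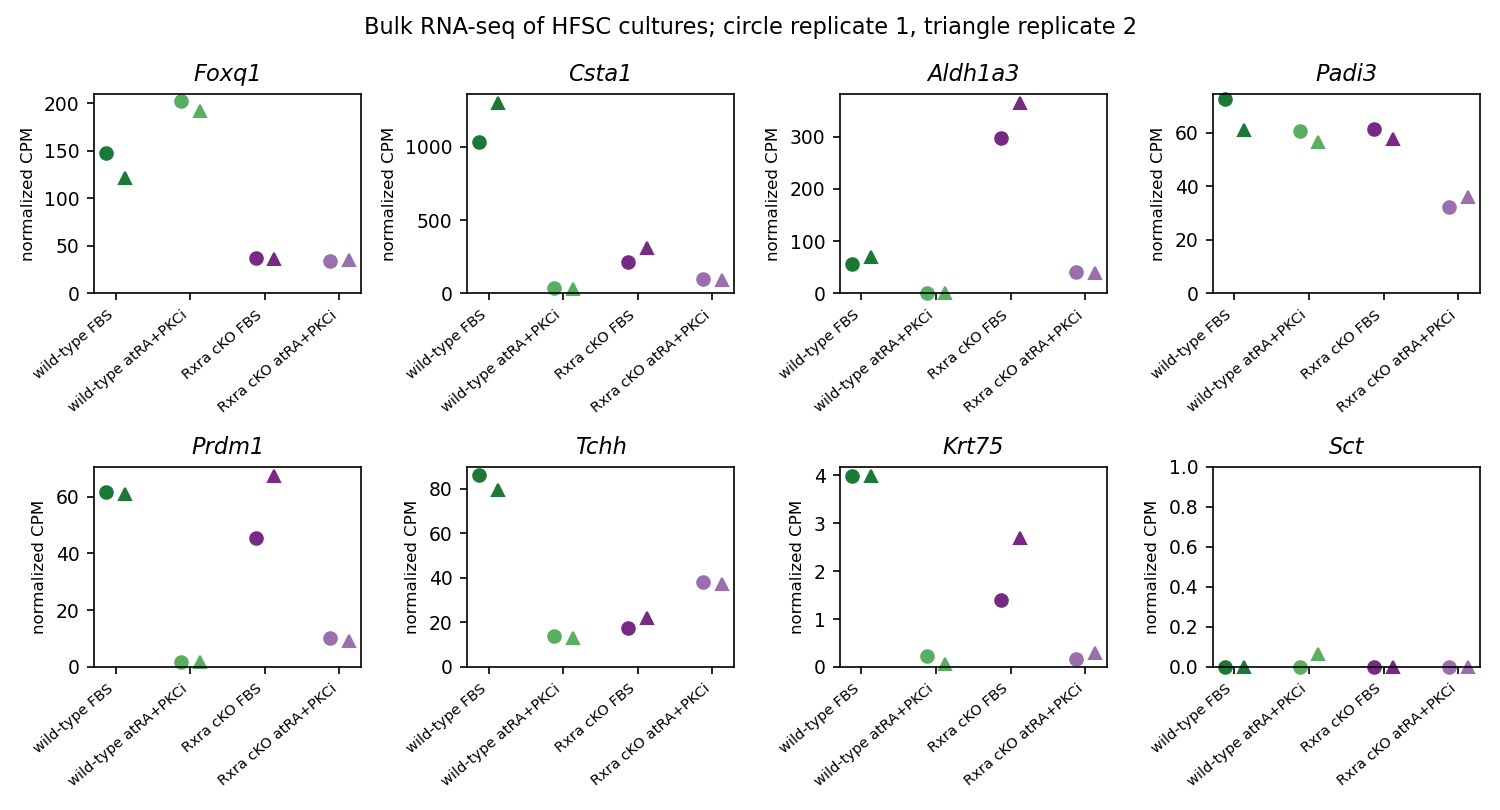
Normalized CPM (linear axis from 0) of 8 medulla genes in bulk RNA-seq of HFSC cultures, with a circle for replicate 1 and a triangle for replicate 2 of each group. Csta1, Prdm1 and Aldh1a3 were lower in atRA+PKCi in both genotypes, Foxq1 was lower in Rxra cKO in either medium, Tchh moved in opposite directions in the genotypes, and Sct was near 0.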

How the data were processed

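UMI counts of called cells are what the authors deposited for the single cells, made with CellRanger 7.0.0 per the file headers (7.0.1 in the submitters' processing notes) on mm10, before removal of ambient RNA or doublets. For bulk RNA-seq, the authors deposited estimated counts per gene, made with Salmon 1.4.0, and these were rounded. ATAC-seq and CUT&RUN samples were not used here.

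Classes were cut by gene levels. The planned cortex limit of 2% kept 0 and 1 cells, so 0.2% was set after seeing the data. Counts were summed per mouse and class (352343 to 6154875 UMIs) and tested by the edgeR 4.0.16 quasi-likelihood method (R 4.3.3, TMM factors, genes kept by filterByExpr, Benjamini-Hochberg adjustment), without a mouse block. The same mouse number marks the same animal, and deviations from class means correlated at 0.108 to 0.328 between classes. Bulk libraries held 25150162 to 35879630 counts, and one fit of 4 groups was called at adjusted p under 0.05. The p-values rest on the spread between 2 mice per class, or between 2 bulk libraries per group, shared over the 4 classes or groups of each fit. The labels do not say whether the 2 bulk libraries of a group came from different mice. Members, lists and named genes were chosen with earlier results of these data known. Named genes were list genes and, per comparison, the 10 called genes with the largest change each way among those at 50 CPM or more without overlap between mice, and the 10 most abundant. The fits were also run on simulated counts with known changes. That simulation had no mouse effect and no choice of cells by gene levels, so it does not check the fits for either. CPM of class sums are UMIs per 1000000, and CPM of bulk libraries use TMM. Sequences came from RefSeq (GRCm38.p6) and positions from GENCODE M21 (GRCm38). DESeq2 1.42.0, scanpy 1.11.5 and the settings below were alternatives or tools.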

Additional observations from a re-analysis of the deposited data

How the results depend on the processing

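All 348 within-mouse log2 fold changes of the 174 single cell gene results had the sign of the value from both mice, and no result reversed under an alternative. Part of these genes had been named for being called without overlap between mice, which nearly fixed their sign in each mouse. This agreement is therefore no support for those genes. With 1 mouse left out no residual degrees of freedom remain, so no calls were counted then. At adjusted p under 0.05 with no fold limit, 1123 genes were higher and 976 lower than in cortex, 1537 and 1358 than in IRS, and 1188 and 1165 than in matrix. With no filter on low counts, 799, 1358 and 938 genes were higher than in cortex, IRS and matrix, and 501 lower than in matrix. With cortex keratins at 0.5% or more, 642 genes were higher than in cortex, and with cells thinned to 5000 UMIs, 459 were higher than in IRS. The matrix comparison gave 311 higher and 108 lower genes with only its 2 classes fitted, 342 and 186 without doublets, and 312 and 176 without collagen-bearing cells, an alternative chosen, like the 0.5% limit, after seeing the data. The mouse as a block gave 671 genes higher than in cortex and changed no other count over all genes by over 1.5 times and ended no call of a named gene (counts within lists that it moved are given beside them), and the replicate block in bulk left 4238 genes higher and 4232 lower in wild-type. At least 1 alternative ended the call of 5 of 58 named genes against cortex, 7 of 52 against IRS and 23 of 64 against matrix, and the cause was not tested. These totals include named genes that had no call to lose, such as Fabp5 against cortex. In bulk, leaving out each library in turn gave 2133 to 3724 genes higher and 2326 to 3890 lower in Rxra cKO (lowest without replicate 2 and replicate 1 of Rxra cKO atRA+PKCi), and 961 to 1878 higher and 1375 to 2484 lower by the interaction (lowest without replicate 1 and replicate 2 of the same group). DESeq2 gave 1201 genes higher by the interaction. Precision rests on 2 mice, and the IRS class on 60 and 32 cells.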
